A study of Rattus norvegicus with 6 samples.

Results

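The genes described here are 44 markers of muscle identity, 22 of cardiac muscle and 22 of skeletal muscle, measured by RNA sequencing in H9c2 cells. H9c2 is a myoblast line derived from embryonic rat heart, known for making skeletal as well as cardiac muscle proteins. The genes were taken by symbol from the deposited table of 24360 gene rows, where 39 of the 44 had a row (20 cardiac and 19 skeletal). Ryr2, Nppa, Myf5, Myh1 and Myh8 had no row under their symbol, and their expression is not analysed here.

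There were 3 samples labelled with ginsenoside Rb2, a saponin of ginseng (called Rb2), and 3 labelled NC (called Ctrl). All 6 are labelled wild type and as an embryonic cardiomyocyte cell type. One protocol text is given for every sample, with Rb2 for 48 h, then 4 to 6 h without glucose and oxygen, and 12 h after both were returned. It does not say whether the Ctrl cells were deprived. The labels do not say whether samples of a group came from separate cultures, so every p-value is relative to a spread that may be technical only. The line is a single continuous line, and in bulk RNA fewer cells of a type and less RNA per cell cannot be told apart.

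Striated muscle contracts as myosin of the thick filament pulls on actin of the thin filament, with troponin C, I and T on the thin filament sensing calcium. Cardiac and skeletal muscle build this machine from partly different members of the same gene families. In the heart, Gata4, Nkx2-5, Mef2c, Tbx5 and Hand2 are the transcription factors that set the program. In skeletal muscle, Myod1, Myf5, Myog and Myf6 do so, with myogenin (Myog) acting as myoblasts leave the cell cycle and fuse. Several genes listed as cardiac are also used outside the heart: Tnnc1 in slow skeletal fibers, Tnnt2 and Myl4 in embryonic skeletal muscle, and Atp2a2, Gja1, Mef2c and Hand2 more widely.

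Total counts were 5521376, 5570308 and 5193077 in the Rb2 samples, against 8793390, 5881914 and 5787587 in the Ctrl samples. A count of 0 allows up to 3 counts, which amounted to 0.539 to 0.578 CPM (counts scaled to a common library total) in the Rb2 libraries and 0.341 to 0.518 CPM in the Ctrl libraries, and covers counting error only. Ctrl 1 stood apart from the other libraries: on the first principal component, which held 42.3% of the variance, it was at 47.0, against -23.8 to -18.1 in the Rb2 samples and -0.56 and 18.1 in the other Ctrl samples. Markers of other cell types were near the detection limit for endothelium, whose 2 genes with a row summed to 0 to 0.177 CPM in the Rb2 samples and 0 to 0.121 CPM in the Ctrl samples. Of the 5 epithelial markers with a row, Epcam, Cdh1, Krt18 and Cldn4 had no count in any sample, and Krt8, a keratin of simple epithelia, was at 33.6 to 39.6 CPM in the Rb2 samples and 32.0 to 41.6 CPM in the Ctrl samples. Of the 5 leukocyte markers with a row, Ptprc had no count, Cd68, Lyz2 and Csf1r had 10, 6 and 15 counts over all samples, and Cd14 was at 26.0 to 30.2 CPM in the Rb2 samples and 19.4 to 29.7 CPM in the Ctrl samples. Whether the Krt8 and Cd14 counts came from H9c2 cells or from other cells was not tested.

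The muscle genes were a small part of the RNA. They took 0.0738%, 0.0717% and 0.0729% of all counts in the Rb2 samples, against 0.0836%, 0.0712% and 0.0724% in the Ctrl samples. Of the 39 genes with a row, 29, 28 and 29 had a count in the Rb2 samples, against 29, 30 and 26 in the Ctrl samples. Across samples, 26 were counted in every library, 8 in some and 5 in none. The 5 with no count were Tbx5, a cardiac limb and chamber regulator, Myl3, the ventricular essential light chain, Actc1, cardiac alpha-actin, Myf6, a late skeletal regulator, and Myl1, the fast skeletal essential light chain.

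**Figure D1:**
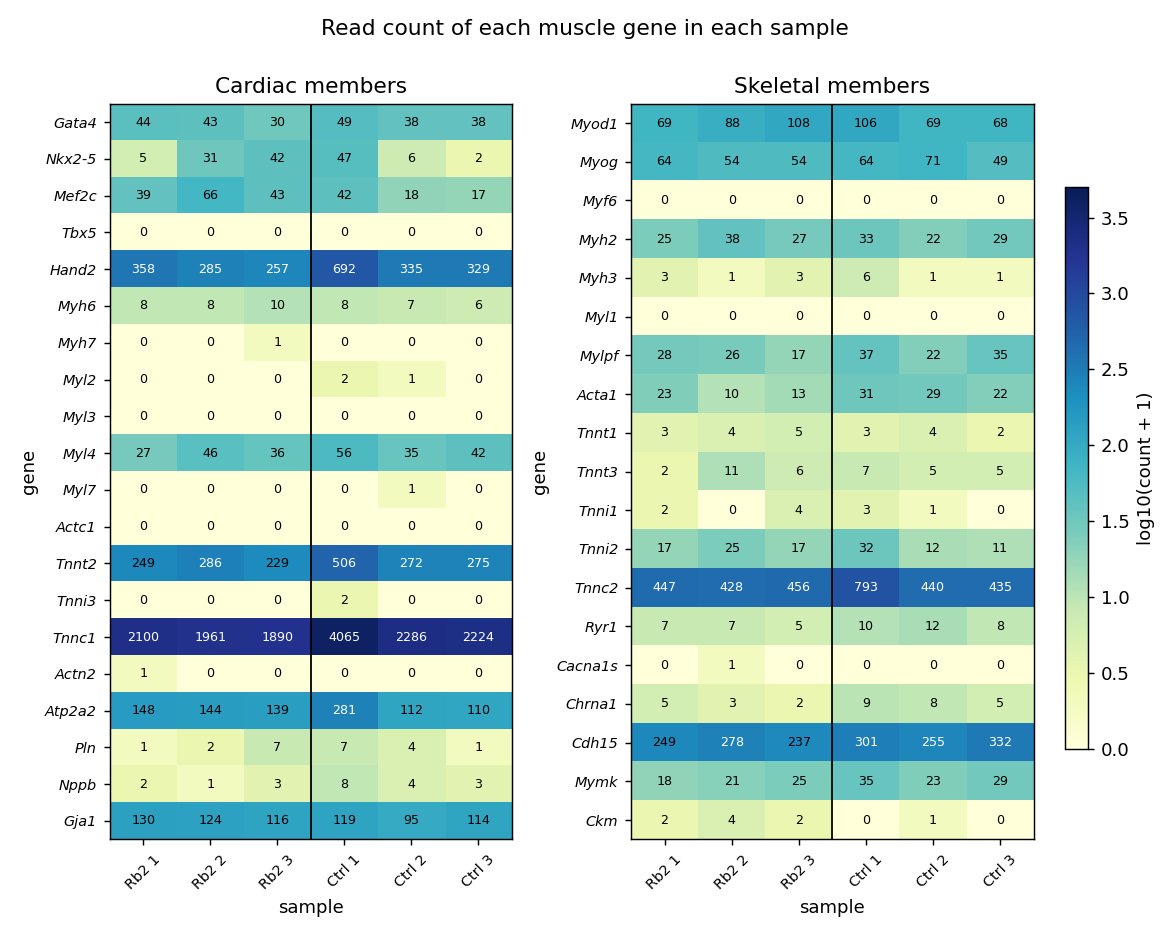
Deposited read counts of the 39 muscle genes with a row, cardiac at the left and skeletal at the right, one column per sample with the 3 Rb2 samples before the 3 Ctrl samples. Colour is log10(count + 1) and the printed number is the count. Tnnc1 holds between 1890 and 4065 counts in every sample, while Tbx5, Myl3, Actc1, Myf6 and Myl1 are at 0 throughout.

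Neither program was counted as a whole. How reads were assigned to genes is not given, so a count of 0 does not show that a gene was silent. Myh9, a non-muscle heavy chain, also had only 0 to 4 counts per sample. Myh10, another such chain, averaged 28.9 CPM in Rb2 samples and 20.6 CPM in Ctrl samples. Of 27591 counts over all members and samples, 84.3% fell on Tnnc1, Tnnc2, Hand2, Tnnt2 and Cdh15. Tnnc1, the troponin C of heart and slow fibers, held 68.6% of the 21171 counts on cardiac genes. Tnnc2, the troponin C of fast skeletal fibers, held 46.7% of the 6420 counts on skeletal genes. Sarcomeric myosin heavy chains define a contractile muscle cell. Those on the list with a row had 237 counts together: 174 of Myh2, 47 of Myh6, 15 of embryonic Myh3 and 1 of Myh7. Several genes of the cardiomyocyte sarcomere were at the detection limit, while Myh6 had 6 to 10 counts in every sample and Tnnt2 at least 229. Ventricular Myl2 had counts of 0, 0 and 0 in the Rb2 samples and 2, 1 and 0 in the Ctrl samples. Cardiac troponin I (Tnni3) had 0, 0 and 0 in the Rb2 samples and 2, 0 and 0 in the Ctrl samples, and atrial Myl7, Z-disc Actn2 and slow myosin Myh7 had 1 count each over the 6 samples. Of the markers of the labelled cell type, Tnnc1, Tnnt2, Hand2 and Gata4 were thus counted in every sample, while Tbx5, Actc1 and Myl3 were at 0 in all.

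To compare genes, each transcript's CPM was divided by its own length in kilobases and summed per gene. On this scale Tnnc1 was at 429 ± 21.2 CPM per kb in Rb2 samples and 526 ± 69.3 in Ctrl samples (SD, n = 3 each). Tnnc2 followed with 105 ± 6.63 CPM per kb in Rb2 samples and 111 ± 15.4 in Ctrl samples. Its 6 values did not overlap those of Tnnc1 above it or Hand2 below it. Hand2, a regulator of the heart tube and outflow tract, was at 47.5 ± 7.91 CPM per kb in Rb2 samples and 60.4 ± 12.8 in Ctrl samples, a range that overlapped Tnnt2, at 38.3 ± 3.38 in Rb2 samples and 45.1 ± 6.79 in Ctrl samples. Cdh15, the M-cadherin of myoblasts and satellite cells, was next with 16.3 ± 0.88 CPM per kb in Rb2 samples and 16.9 ± 3.74 in Ctrl samples, apart from its neighbours on both sides. From the gene ranked 6 down, every gene overlapped the next. Myod1 (8.05 ± 1.98 CPM per kb in Rb2 samples, 6.34 ± 0.30 in Ctrl samples) and Myog (7.0 ± 0.70 in Rb2 samples, 6.68 ± 1.84 in Ctrl samples) lay above Gata4 (2.05 ± 0.36 in Rb2 samples, 1.92 ± 0.13 in Ctrl samples) and Mef2c (2.81 ± 0.99 in Rb2 samples, 1.22 ± 0.53 in Ctrl samples). The cardiac regulator Hand2 lay above Myod1 and Myog. Nkx2-5 overlapped Myod1 and Myog, at 4.27 ± 2.56 in Rb2 samples and 5.68 ± 7.09 in Ctrl samples. Ryr1, the skeletal calcium release channel, was ranked 6 by this measure and 28 when its CPM was divided by the gene's deposited length, because 93.9% of its 49 counts were placed on a model of 174 bases. Levels per length also rest on reads being short, which the files leave unsettled.

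Promoter windows of 4 of these genes are shown because they contrast the leading skeletal thin filament gene, the myogenic regulator, the leading troponin T and the cardiac actin with no count. Myogenic factors such as Myod1 and Myog bind DNA at the E-box, CANNTG. Each line is the 250 bases before the annotated start, from RefSeq on GRCr8, 5′ to 3′ on the gene's strand, with every E-box in capitals.
Tnnc2, chr3:173935340-173935589 (-): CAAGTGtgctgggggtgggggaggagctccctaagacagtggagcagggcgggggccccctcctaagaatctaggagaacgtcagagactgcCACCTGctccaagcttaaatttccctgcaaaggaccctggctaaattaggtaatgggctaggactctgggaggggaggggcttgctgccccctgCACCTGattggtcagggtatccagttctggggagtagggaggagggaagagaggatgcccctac
Myog, chr13:48297226-48297475 (+): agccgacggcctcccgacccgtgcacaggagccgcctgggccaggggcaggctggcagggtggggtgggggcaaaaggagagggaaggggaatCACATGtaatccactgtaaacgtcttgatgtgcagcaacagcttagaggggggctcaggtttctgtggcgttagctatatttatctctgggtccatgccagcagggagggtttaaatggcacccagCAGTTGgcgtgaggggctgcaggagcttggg
Tnnt2, chr13:49818873-49819122 (+): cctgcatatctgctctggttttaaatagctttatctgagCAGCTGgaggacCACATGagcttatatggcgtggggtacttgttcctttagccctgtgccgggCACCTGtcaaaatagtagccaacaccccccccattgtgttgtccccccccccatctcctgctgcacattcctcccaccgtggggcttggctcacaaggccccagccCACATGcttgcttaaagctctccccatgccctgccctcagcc
Actc1, chr3:121271828-121272077 (-): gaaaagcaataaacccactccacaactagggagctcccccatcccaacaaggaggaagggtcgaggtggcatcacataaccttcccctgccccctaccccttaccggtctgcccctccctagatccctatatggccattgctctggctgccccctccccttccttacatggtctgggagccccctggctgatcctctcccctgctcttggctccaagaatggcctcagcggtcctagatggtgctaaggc
The windows hold 3, 2, 4 and 0 E-boxes in that order. These 4 genes were picked, and whether E-boxes go with expression was not tested. The count of 0 for Actc1 is itself uncertain, as muscle actins are nearly identical in coding sequence. Tnnt2 had 2 entries in the promoter table, and the first is shown. An E-box was found in 29 of the 36 members present in the table (80.6%), against 65.2% of 27457 promoters of the same length, 1 per symbol. The letters reading CAGCTG, an E-box form bound by myogenic factors, were in 10 of 36 members (27.8%), against 11.9% of all promoters. Expression could be tested for 18 members, of which only 12 were in the promoter table. Of these 12, 11 held an E-box, as did 18 of the 24 other members in the promoter table. These 24 include members with no gene row, since only 21 members with a row were not tested. The E-box reads the same on both strands and CAGCTG is one form of it. Of the other motifs searched, a CArG box and a MEF2 site were each in 2 of 36 members (5.56%), against 1.5% and 3.07% of all promoters. A match describes letters and is not a bound site, and these shares carry no test.

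None of the muscle genes passed the test for a difference between Rb2 and Ctrl. The 18 genes that passed a filter on low counts (9 cardiac and 9 skeletal) were read from edgeR's quasi-likelihood fit over 11551 genes, and a call was a Benjamini-Hochberg adjusted p under 0.05. It made 0 calls among the 18, against 2.70% of all genes tested (1.90% higher and 0.805% lower in Rb2). At an unadjusted p under 0.05 there were 2, Mef2c and Tnnc1, against 20.0% of all genes. DESeq2 called 1, Mef2c, against 4.47% of the genes it tested, and limma-voom called 0. All 3 Rb2 values lay outside the range of the Ctrl values in 3 of the 18 genes, higher for Mef2c and Gja1 and lower for Tnnc1, against 27.2% of all genes. Of the 18, 9 were above and 9 below no change, with a median log2 fold change (Rb2 over Ctrl) of 0.05 for cardiac genes and -0.04 for skeletal genes, beside -0.02 for all genes tested. A p that misses the threshold does not show that levels were alike, and the intervals below give the size of change that each gene's data allow.

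**Figure D2:**
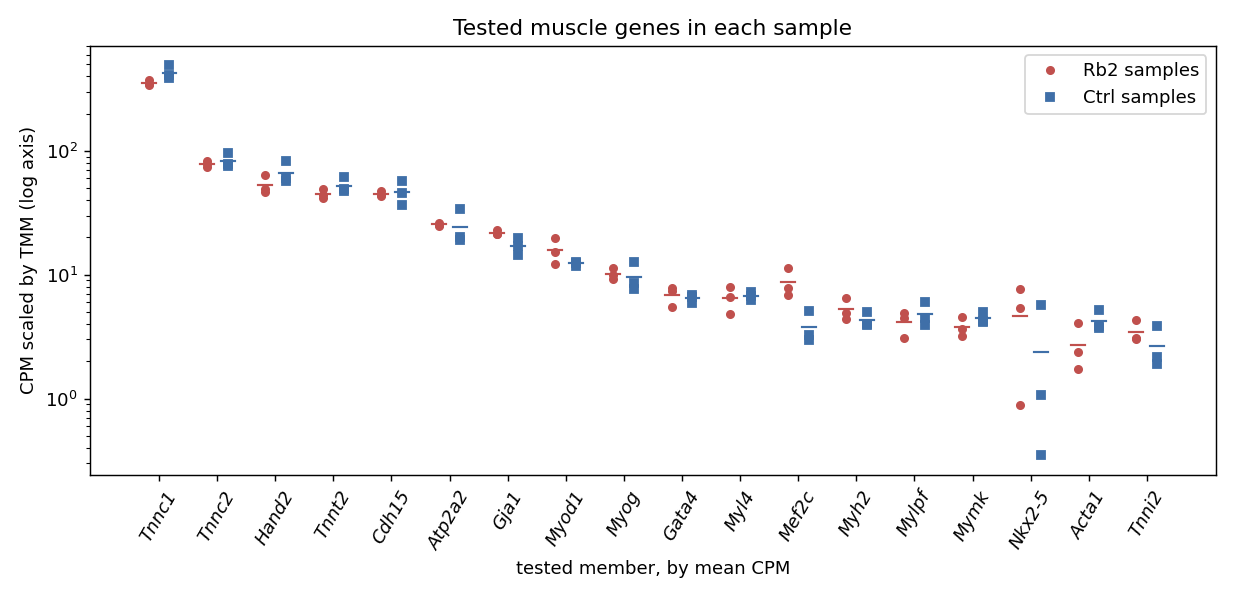
CPM, scaled by TMM and on a log axis, of the 18 tested muscle genes in each sample, ordered by mean CPM. Circles are Rb2 samples, squares Ctrl samples and lines group means (n = 3 each). Mef2c at 6.90 to 11.4 CPM in Rb2 samples stands above all 3 Ctrl values of 2.95 to 5.06 CPM, while Nkx2-5 spreads over most of the range in both groups.

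Mef2c had the lowest p of the 18. It encodes a MADS-box factor that acts in heart, skeletal muscle, brain and endothelium. Its counts were 39, 66 and 43 in Rb2 samples, against 42, 18 and 17 in Ctrl samples, which are 6.90, 11.4 and 7.86 CPM in Rb2 samples and 5.06, 3.23 and 2.95 CPM in Ctrl samples. All 3 Rb2 samples were above all 3 Ctrl samples. The log2 fold change was 1.18 (SE 0.29, 95% confidence interval 0.53 to 1.84) with an edgeR adjusted p of 0.0645, so it was not called. Across 19 alternative settings the adjusted p ran from 0.00805 to 0.28 and the log2 fold change from 0.95 to 1.51. The lowest adjusted p came without Ctrl 1, where the log2 fold change was 1.51, and the DESeq2 adjusted p was 0.0437. It rests on 225 counts over 6 libraries.

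Nkx2-5, the homeobox factor of early heart cells, varied more within groups than between them. It had counts of 5, 31 and 42 in Rb2 samples and 47, 6 and 2 in Ctrl samples, so each group held low and high samples. Its log2 fold change of 0.83 had an interval of -1.58 to 3.24, and without Ctrl 1 it was 2.69 (edgeR adjusted p 0.309). Hand2 was at 63.3, 49.1 and 47.0 CPM in Rb2 samples, against 83.4, 60.2 and 57.1 CPM in Ctrl samples. The groups overlapped through Rb2 1 and both lower Ctrl samples, and the log2 fold change was -0.34 (interval -0.73 to 0.06, edgeR adjusted p 0.318), or -0.13 without Ctrl 1. Gata4, the zinc finger factor of cardiac mesoderm, was at 7.78, 7.40 and 5.48 CPM in Rb2 samples and 5.91, 6.82 and 6.60 CPM in Ctrl samples. Its Rb2 samples spanned the Ctrl values (log2 fold change 0.10, interval -0.39 to 0.60). Tbx5 alone of the 5 regulators had no count.

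The cardiac thin filament was carried by Tnnc1 and Tnnt2. Tnnc1 was at 371, 338 and 345 CPM in Rb2 samples, against 490, 411 and 386 CPM in Ctrl samples. Every Rb2 sample was below every Ctrl sample, with Ctrl 1 the highest of the 6. The log2 fold change was -0.29 (SE 0.10, interval -0.52 to -0.055), with an unadjusted p of 0.0206 and an edgeR adjusted p of 0.162. Without Ctrl 1 the log2 fold change was -0.16 (adjusted p 0.138). Tnnt2, cardiac troponin T, was at 44.03, 49.2 and 41.9 CPM in Rb2 samples and 61.0, 48.8 and 47.7 CPM in Ctrl samples. Rb2 2 lay between Ctrl 1 and Ctrl 2, so the groups overlapped (log2 fold change -0.22, interval -0.53 to 0.09, adjusted p 0.403; -0.083 without Ctrl 1). Actc1 was at 0 although Acta2, the smooth muscle actin, averaged 903 CPM in Rb2 samples and 1126 CPM in Ctrl samples. Muscle actins are nearly identical in coding sequence, and how the authors assigned reads shared between such genes is not given in the sources used here, so the split among Actc1, Acta1 and Acta2 is uncertain.

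The cardiac thick filament rested on Myl4, the atrial and embryonic essential light chain. Myl4 was at 4.77, 7.92 and 6.58 CPM in Rb2 samples, against 6.75, 6.29 and 7.29 CPM in Ctrl samples. The Rb2 samples spanned the Ctrl values (log2 fold change -0.08, interval -0.61 to 0.46). Myh6, the fast cardiac heavy chain, was below the filter with counts of 8, 8 and 10 in Rb2 samples and 8, 7 and 6 in Ctrl samples. As CPM these were 1.41, 1.38 and 1.83 in Rb2 samples and 0.96, 1.26 and 1.04 in Ctrl samples, with no overlap but on 47 counts in all.

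Of the calcium, peptide and junction genes, Atp2a2 and Gja1 could be tested. Atp2a2, the calcium pump SERCA2 of heart, slow muscle and many other cells, was at 26.2, 24.8 and 25.4 CPM in Rb2 samples and 33.9, 20.1 and 19.1 CPM in Ctrl samples. The Rb2 samples lay between Ctrl 1 and the other Ctrl samples, and the log2 fold change was 0.05 (interval -0.44 to 0.54). Without Ctrl 1 it was 0.39 (edgeR adjusted p 0.0892). Gja1, the gap junction protein connexin 43, was at 23.0, 21.4 and 21.2 CPM in Rb2 samples, against 14.3, 17.1 and 19.8 CPM in Ctrl samples. All 3 Rb2 samples were higher, with a log2 fold change of 0.36 (interval -0.01 to 0.73, edgeR adjusted p 0.263). Pln, the inhibitor of SERCA2, had counts of 1, 2 and 7 in Rb2 samples and 7, 4 and 1 in Ctrl samples. Nppb, the B-type natriuretic peptide of stressed heart, had 2, 1 and 3 in Rb2 samples and 8, 4 and 3 in Ctrl samples. Both are too few to compare.

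Of the skeletal regulators, Myod1 and Myog were both counted in every sample and Myf6 in none. Myod1, which commits cells to the myoblast fate, was at 12.2, 15.2 and 19.7 CPM in Rb2 samples, against 12.8, 12.4 and 11.8 CPM in Ctrl samples. Rb2 2 and Rb2 3 were above the Ctrl range and Rb2 1 was inside it (log2 fold change 0.35, interval -0.11 to 0.80, adjusted p 0.372). Myog was at 11.3, 9.30 and 9.87 CPM in Rb2 samples and 7.72, 12.7 and 8.51 CPM in Ctrl samples. The Rb2 samples lay inside the Ctrl range, with a log2 fold change of 0.08 (interval -0.44 to 0.61; -0.045 without Ctrl 1).

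The skeletal thin filament was led by Tnnc2, at 79.0, 73.7 and 83.4 CPM in Rb2 samples and 95.6, 79.0 and 75.5 CPM in Ctrl samples. The groups overlapped and the interval was narrow (log2 fold change -0.09, -0.36 to 0.19; 0.044 without Ctrl 1). Its fast troponin partners were lower per length, with Tnni2 at 4.18 ± 0.94 CPM per kb in Rb2 samples and 3.21 ± 1.41 in Ctrl samples, and Tnnt3 at 1.03 ± 0.71 in Rb2 samples and 0.81 ± 0.02 in Ctrl samples. As CPM, Tnni2, fast troponin I, was at 3.01, 4.30 and 3.11 CPM in Rb2 samples and 3.86, 2.15 and 1.91 CPM in Ctrl samples, which overlapped through Ctrl 1 (log2 fold change 0.35, interval -0.40 to 1.10). Without Ctrl 1 it was 0.79 (edgeR adjusted p 0.186). Tnnt3, fast troponin T, had counts of 2, 11 and 6 in Rb2 samples and 7, 5 and 5 in Ctrl samples. The slow forms had fewer: Tnnt1 had 21 counts and Tnni1 10 over the 6 samples. Acta1, skeletal alpha-actin, was at 4.07, 1.72 and 2.38 CPM in Rb2 samples, against 3.74, 5.21 and 3.82 CPM in Ctrl samples. Rb2 1 lay inside the Ctrl range and the other Rb2 samples below it, with a log2 fold change of -0.63 (interval -1.39 to 0.13, edgeR adjusted p 0.329).

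In the skeletal thick filament, Myh2, a fast IIa heavy chain, was at 4.42, 6.54 and 4.94 CPM in Rb2 samples and 3.98, 3.95 and 5.03 CPM in Ctrl samples. The groups overlapped (log2 fold change 0.30, interval -0.26 to 0.86). The Myh2 row has a deposited length of 18143 bases, but its counts were mostly on Myh2-202 of 6034 bases, with 24, 38 and 26 in Rb2 samples and 32, 21 and 29 in Ctrl samples. Mylpf, the fast regulatory light chain, was at 4.95, 4.48 and 3.11 CPM in Rb2 samples and 4.46, 3.95 and 6.08 CPM in Ctrl samples, again overlapping (log2 fold change -0.20, interval -0.82 to 0.41).

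Among the genes of adhesion, fusion, excitation and energy, Cdh15 and Mymk could be tested. Cdh15 was at 44.03, 47.9 and 43.3 CPM in Rb2 samples and 36.3, 45.8 and 57.6 CPM in Ctrl samples. The Rb2 samples lay inside the wider Ctrl range (log2 fold change -0.04, interval -0.42 to 0.34; -0.18 without Ctrl 1). Mymk, the fusion protein myomaker, was at 3.18, 3.62 and 4.57 CPM in Rb2 samples and 4.22, 4.13 and 5.03 CPM in Ctrl samples, with Rb2 3 inside the Ctrl range (log2 fold change -0.23, interval -0.79 to 0.32). Cacna1s, the voltage sensor of skeletal muscle, had 1 count over all samples, and Ryr1 had counts of 7, 7 and 5 in Rb2 samples and 10, 12 and 8 in Ctrl samples. Chrna1, the muscle acetylcholine receptor subunit, had counts of 5, 3 and 2 in Rb2 samples and 9, 8 and 5 in Ctrl samples, of which 96.9% sat on a model of 214 bases. Ckm, the muscle creatine kinase that rises as myotubes mature, had 2, 4 and 2 in Rb2 samples and 0, 1 and 0 in Ctrl samples, which did not overlap but made 9 counts in all.

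**Figure D3:**
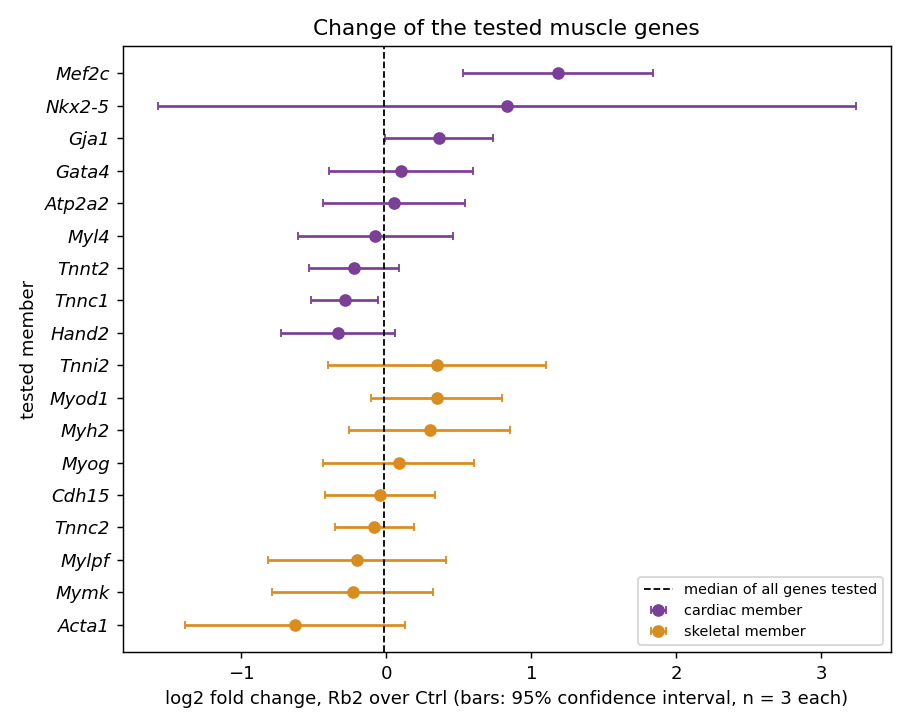
Log2 fold change, Rb2 over Ctrl, of the 18 tested muscle genes with 95% confidence intervals from edgeR (n = 3 each). Purple marks cardiac and orange skeletal genes, and the dashed line is the median of all genes tested, -0.02. The intervals of Mef2c (0.53 to 1.84) and Tnnc1 (-0.52 to -0.055) leave out 0, and neither gene was called after adjustment.

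Summed over the programs, the cardiac genes were at 550, 516 and 512 CPM in Rb2 samples, against 709, 577 and 549 CPM in Ctrl samples. Rb2 1 lay level with Ctrl 3, so the groups overlapped by a narrow margin, and most of the sum is Tnnc1. The skeletal genes were at 170.5, 172 and 179 CPM in Rb2 samples and 177, 175 and 179 CPM in Ctrl samples, which overlapped. Ctrl 1 was the highest of the 6 samples in 5 of the 18 tested genes and the lowest in 3.

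At the transcript level no member was called either. The 39 genes had 95 transcripts, of which 40 were new models carrying 14.8% of the counts. Of the 95, 26 passed the filter and edgeR called 0, against 0.00% of the 16679 transcripts tested, with 4 at an unadjusted p under 0.05, against 13.8% of all. One of the 4 is the Tnnt2 model ONT.5503.17 of 1161 bases. It had counts of 0, 0 and 0 in Rb2 samples and 189, 53 and 72 in Ctrl samples. Set against a floor of 3 counts over the Rb2 group (0.177 CPM), it was at least 84.7-fold lower in Rb2 samples. That bound covers counting error only, and not reads placed on another model. It passed the filter only through the Ctrl samples, where it is high, so no p is given for it. Its place among the 4 is likewise no support for a difference. Another model, ONT.5503.16, is 2 bases longer and had counts of 0, 143 and 24 in Rb2 samples and 39, 28 and 0 in Ctrl samples. The pair together had 0, 143 and 24 in Rb2 samples and 228, 81 and 72 in Ctrl samples, which overlapped. The annotated Tnnt2-201 had 247, 138 and 200 counts in Rb2 samples and 270, 187 and 195 in Ctrl samples (log2 fold change 0.05, interval -0.48 to 0.58).

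Myog was split between a pair of annotated transcripts that differ in length by 1 base. Myog-202 had counts of 64, 54 and 0 in Rb2 samples and 64, 0 and 0 in Ctrl samples, and Myog-201 had 0, 0 and 54 in Rb2 samples and 0, 71 and 49 in Ctrl samples. Each sample thus placed all its Myog counts on one of the pair, in both groups. Nkx2-5 was divided between Nkx2-5-201 of 1344 bases, with 2, 29 and 39 counts in Rb2 samples and 2, 1 and 0 in Ctrl samples, and a new model of 403 bases, with 3, 2 and 3 in Rb2 samples and 45, 5 and 2 in Ctrl samples. The high count of Ctrl 1 for Nkx2-5 was therefore on the short model and the high counts of Rb2 2 and Rb2 3 on the annotated transcript. Tnnt1, on 21 counts, was on Tnnt1-201 in the Rb2 samples (3, 4 and 5) and on Tnnt1-202 in the Ctrl samples (3, 4 and 2). None of these Nkx2-5 and Tnnt1 transcripts passed the filter, and they were chosen after their values were seen.

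**Figure D4:**
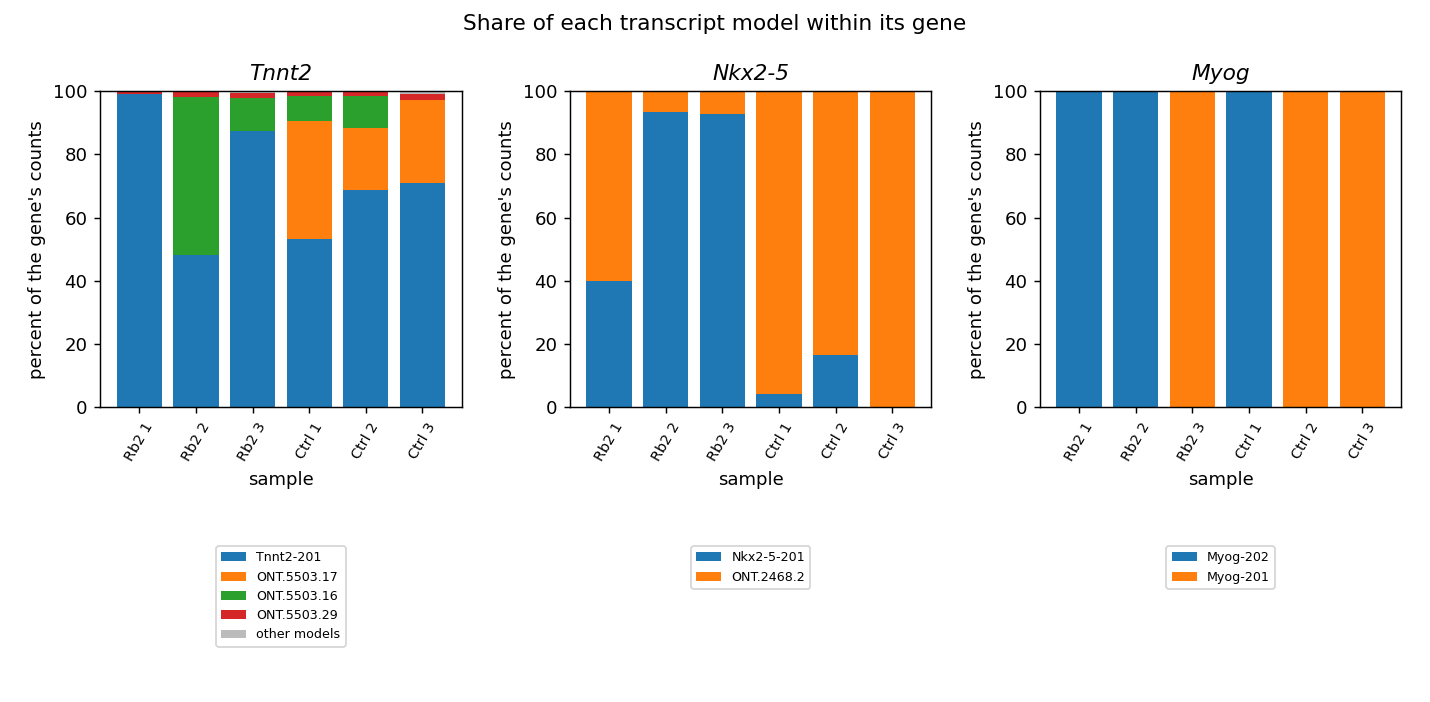
Percent of a gene's counts on each transcript model, per sample, for Tnnt2, Nkx2-5 and Myog, with the Rb2 samples left of the Ctrl samples. Tnnt2 model ONT.5503.17 is absent from the 3 Rb2 bars, Nkx2-5-201 makes up 93.5% and 92.9% of Rb2 2 and Rb2 3, and Myog is on a single model in every sample.

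In the other genes with more than one tested transcript, none was called. Mef2c-205 had counts of 14, 14 and 16 in Rb2 samples and 10, 6 and 5 in Ctrl samples (log2 fold change 1.27, edgeR adjusted p 0.205), and the new model ONT.9285.2 had 18, 38 and 17 in Rb2 samples and 27, 5 and 8 in Ctrl samples (1.15, adjusted p 0.414). Both pointed the same way as the gene. All Hand2 counts were on new models: ONT.7495.1 had 289, 228 and 197 in Rb2 samples and 509, 234 and 245 in Ctrl samples, and ONT.7495.3 had 65, 56 and 56 in Rb2 samples and 178, 92 and 80 in Ctrl samples. The log2 fold change of ONT.7495.3 was -0.74 (adjusted p 0.233). Tnnc1-201 held 98.1% of the Tnnc1 counts and was at -0.29 on the log2 scale (adjusted p 0.324), and the new model ONT.7125.2 held 1.13% (-0.35, adjusted p 0.567). The Atp2a2 transcripts did not point one way: Atp2a2-202 was at 0.03, ONT.4946.1 at 0.65 and ONT.4945.1 at -0.74 on the log2 scale, beside 0.05 for the gene, with adjusted p-values of 0.529 to 0.978. Mylpf-201 was at -0.26 and ONT.638.1 at -0.12, with adjusted p-values of 0.769 and 0.921.

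Further striated muscle genes were expressed beside the identity genes. Of a list of 56, 44 had a row and 27 were tested, with 1 called higher and 0 lower, beside the background shares above, and a median log2 fold change of 0.06. The one called was Klhl41, a sarcomere assembly protein of skeletal muscle, at 42.8, 47.4 and 43.9 CPM in Rb2 samples, against 28.8, 28.9 and 26.9 CPM in Ctrl samples. All 3 Rb2 samples were higher (log2 fold change 0.66, SE 0.12, edgeR adjusted p 0.0356), and the call was lost in each fit without Ctrl 2, Rb2 1, Rb2 2 or Rb2 3 (adjusted p 0.103 to 0.198). The highest in CPM were Ankrd1, a stress-responsive titin-binding protein, at 396 ± 14.8 CPM in Rb2 samples and 449 ± 79.3 CPM in Ctrl samples, and Itga7, the laminin receptor of myoblasts, at 243 ± 14.5 CPM in Rb2 samples and 290 ± 59.9 CPM in Ctrl samples. Casq2, a calcium store protein, was at 229 ± 15.2 CPM in Rb2 samples and 226 ± 14.9 CPM in Ctrl samples (SD, n = 3 each). None of these 3 was called, with adjusted p-values of 0.343 to 0.935.

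Genes listed as smooth muscle summed to 4640, 4653 and 4597 CPM in Rb2 samples, against 5204, 5495 and 5566 CPM in Ctrl samples. All 3 Rb2 samples were lower. The sum was larger than that of the 39 identity genes in every sample. It includes the tropomyosins Tpm1 and Tpm2, which are not particular to smooth muscle. Of 12 genes 11 were tested, all with a negative log2 fold change, beside 6004 of the 11551 genes tested. Their median was -0.32, and 9 of 11 were negative when scaled by library size only. Of the 11, 1 was called lower, against 0.805% of all genes. The list was chosen with earlier results of these data known. Without Ctrl 1, 5 of the 11 were called lower, in a fit that called 2.45% of all genes lower. Lmod1, an actin nucleator of smooth muscle, fell to 103, 113 and 109 CPM in Rb2 samples, against 198, 175 and 166 CPM in Ctrl samples (log2 fold change -0.73, SE 0.10, edgeR adjusted p 0.0149). The call was lost in each fit without Ctrl 2, Rb2 1, Rb2 2 or Rb2 3 (adjusted p 0.0683 to 0.143). Tpm1, Acta2 and Tagln, the 3 highest in CPM, were not called. Tpm1 was at 1324 ± 21.5 CPM in Rb2 samples and 1352 ± 28 CPM in Ctrl samples, Acta2 at 903 ± 3.77 CPM in Rb2 samples and 1126 ± 109 CPM in Ctrl samples, and Tagln was at 651 ± 6.32 CPM in Rb2 samples and 796 ± 14.5 CPM in Ctrl samples (SD, n = 3 each; adjusted p 0.849, 0.0828 and 0.0655). Fibroblast genes summed to 3455, 3654 and 3862 CPM in Rb2 samples and 3821, 2905 and 2985 CPM in Ctrl samples, with 0 of 5 tested genes called (1 called higher without Ctrl 1, against 5.08% of all genes). Some other markers on that list were absent or nearly so: Dcn had no count, and Pdgfra, Lum and Postn had 1, 2 and 18 counts over all samples. Thy1 and Pdgfrb went the other way. Thy1 averaged 128 CPM in Rb2 samples and 130 CPM in Ctrl samples, and Pdgfrb 21.6 CPM in Rb2 samples and 21.7 CPM in Ctrl samples. Of the collagens that lead this list, Col1a2 was at 1445 ± 105 CPM in Rb2 samples and 1369 ± 171 CPM in Ctrl samples. Col3a1 was at 1181 ± 92.1 CPM in Rb2 samples and 890 ± 79.3 CPM in Ctrl samples, and Col1a1 at 881 ± 187 CPM in Rb2 samples and 826 ± 415 CPM in Ctrl samples, with adjusted p-values of 0.0546 to 0.921. The part of the fibroblast genes, and that of the smooth muscle genes, in the values of the identity genes was not tested.

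Of 9 inhibitors of muscle differentiation, 6 were tested and 1 was called higher, beside 1.90% of all genes. Without Ctrl 1, 3 were called higher, beside 5.08% of all genes. Id2, which holds back myogenic factors by binding their partners, was at 30.1, 34.8 and 31.6 CPM in Rb2 samples, against 18.7, 19.4 and 20.1 CPM in Ctrl samples. All 3 Rb2 samples were higher (log2 fold change 0.73, SE 0.14, edgeR adjusted p 0.0362), and the call was lost in each fit without Ctrl 2, Rb2 1, Rb2 2 or Rb2 3 (adjusted p 0.0995 to 0.199). Id3, the highest in CPM, was at 591 ± 2.21 CPM in Rb2 samples and 520 ± 42.8 CPM in Ctrl samples (SD, n = 3 each), and Id1 at 62.8 ± 3.95 CPM in Rb2 samples and 47.4 ± 2.89 CPM in Ctrl samples, with adjusted p-values of 0.263 and 0.0917. Snai2 and Hes1, named after their values were seen, pointed opposite ways. Snai2, a zinc finger repressor, was at 7.78, 4.82 and 5.48 CPM in Rb2 samples and 2.29, 2.51 and 3.12 CPM in Ctrl samples, without overlap (log2 fold change 1.195, edgeR adjusted p 0.0566). Hes1, a repressor downstream of Notch, was at 2.12, 4.30 and 1.83 CPM in Rb2 samples and 6.87, 6.82 and 3.12 CPM in Ctrl samples, with overlap (-1.03, adjusted p 0.196). The non-muscle forms of the filament genes took more counts than the muscle forms. Their 12 genes with a row summed to 11421, 11107 and 11543 CPM in Rb2 samples and 18788, 14593 and 12899 CPM in Ctrl samples. Of their 10 tested genes 0 were called, beside 2.70% of all genes. Their median log2 fold change was -0.29, and 0.02 without Ctrl 1. The fit without Ctrl 1 called 1 higher and 1 lower, beside 5.08% and 2.45% of all genes. DESeq2 called 1 lower, and so did the fit without Ctrl 3. Most of the sum was Myl6, the non-muscle essential light chain, at 7468 ± 232 CPM in Rb2 samples and 10888 ± 2364 CPM in Ctrl samples (SD, n = 3 each, adjusted p 0.0704). Actb was at 1715 ± 35.7 CPM in Rb2 samples and 2154 ± 672 CPM in Ctrl samples, and Myl12a at 1474 ± 12.7 CPM in Rb2 samples and 1638 ± 90.6 CPM in Ctrl samples, and neither was called.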

How the data were processed

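RNA of 6 H9c2 samples (3 Rb2, 3 Ctrl) was sequenced after an mRNA library kit for short reads, per the labels' protocols. The authors deposited tables of raw counts for 24360 genes and 44501 transcripts. They also deposited CPM, which differ from count over column total by at most 4.91e-11. The submitters' processing notes list HISAT2 and DESeq2, and a mouse build (mm10). Known genes carry rat identifiers and new models are named ONT, so the build and whether reads were long or short are unsettled, and no coordinates are taken from the files. The counter, its strand setting and how it treated shared reads were not given in the sources used here. Another 18 sample columns of each table match none of these samples and were left out.

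The test was edgeR 4.0.16 under R 4.3.3 on the deposited counts (TMM, filterByExpr, robust quasi-likelihood fit, 1 term for group), with Benjamini-Hochberg adjustment over all features tested. Members with a fit were all named, with the called and the 3 genes highest in CPM of each further list, except in lists of which at most 1 gene was tested. Of transcripts, the 2 with the largest mean share were named in genes with 2 or more tested. The members and lists were chosen with earlier results of these data known. CPM in the text are TMM-scaled, as edgeR gives them. The floors of single libraries are instead 3 counts over the raw library total. Alternatives were 19 settings for genes and 10 for transcripts, with DESeq2 1.42.0 and limma 3.58.1 among them. The edgeR fit was tested on simulated data. The closest pair of samples, Rb2 2 and 3, differed by a chi-square of 1.71 per degree of freedom over genes, so none was counted as a duplicate. The other pairs ran from 4.02 to 21.6, and whether Rb2 2 and 3 were separate cultures is not given. Promoter windows and their coordinates are from RefSeq (GRCr8) and were matched by symbol.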

Additional observations from a re-analysis of the deposited data

How the results depend on the processing

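Direction and side of the threshold held in 355 of 399 recomputed log2 fold changes of the 18 tested members, Klhl41, Lmod1 and Id2. Over all genes, 219 were called higher and 93 lower in Rb2. The count higher was 135 with upper-quartile factors, 461 with library size only, 138 without robust fitting, 514 and 480 by limma on log2(CPM + 1) and log2(CPM + 0.1), and 94 with a length offset. It was 386 higher and 150 lower with any gene counted, and 81 higher and 30 lower with known genes only. With the replicate number as a block 12 were higher and 21 lower. Leaving out a sample gave 0 to 605 higher and 3 to 291 lower. Members called higher were 1 (Mef2c) with library size only, any gene counted, DESeq2 and both CPM fits, and 0 to 1 when a sample was left out. Member transcripts called lower were 1 with any transcript counted and with DESeq2, and 0 to 1 when a sample was left out. Each was ONT.5503.17, which passed the filter only through the Ctrl samples, so these calls are no support for a difference. The median of the skeletal genes was -0.088 with upper-quartile factors, 0.065 with library size, -0.022 with any gene counted, -0.0023 by limma-voom, 0.088 and 0.090 by the CPM fits, -0.023 with the replicate block, -0.011 with the length offset, -0.083 with known genes and -0.046 to 0.022 without a sample. Library size alone moved the median of all genes to 0.097, from -0.016. Log2 fold changes that turned sign were small: Atp2a2 -0.0014 with upper-quartile factors; Myl4, Tnnc2 and Cdh15 at 0.038, 0.030 and 0.065 with library size, 0.011, 0.035 and 0.088 by log2(CPM + 1), and 0.0089, 0.036 and 0.090 by log2(CPM + 0.1); Gata4 -0.028, Atp2a2 -0.093, Myh2 -0.011 and Tnnc2 0.011 with the length offset. Without a sample, Myog ran from -0.045 to 0.33, Tnnc2 from -0.14 to 0.044, Atp2a2 from -0.085 to 0.39, Cdh15 from -0.18 to 0.15, Myl4 from -0.25 to 0.099, Tnnt2-201 from -0.15 to 0.26 and Atp2a2-202 from -0.13 to 0.40. The cause was not tested. The block also ended the calls of Klhl41, Lmod1 and Id2 (adjusted p 0.0804, 0.050 and 0.0825), and the length offset and known genes alone that of Klhl41 (0.0592 and 0.050). The block ended no other call of a named gene. Samples share only a replicate number: deviations of same-numbered samples correlated at -0.067, -0.061 and -0.0067, and Rb2 1 correlated best with Ctrl 2 (0.156). At these depths 16 members had counts too low to test.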
